A study of Mus musculus with 2 samples.

Results

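The miR-34 and miR-449 family comprises 6 miRNA genes in the mouse, Mir34a, Mir34b, Mir34c, Mir449a, Mir449b and Mir449c, known for a common seed, the stretch of bases 2 to 8 through which a miRNA pairs with its target messages. The members were taken by name, as the 6 of 2202 miRNA genes in each deposited table whose identifiers carry these symbols in the GENCODE M21 annotation. The rule uses no measured value, though earlier results of these data were known when it was set. Short RNA was sequenced from hippocampal tissue of female B6CASTF1/J mice, the first-generation cross of C57BL/6J and CAST/EiJ, aged 25 days and with no treatment named. The 2 libraries, replicates 1 and 2, form a single group, so they describe levels and the spread between samples, not a condition. The labels call both biological replicates and list the same donor entry for both, and they name the tissue a layer of the hippocampus without saying which layer. Nothing in them says that the samples came from separate animals, so the spread below is that between these samples and may be technical.

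As background, these miRNAs load into Argonaute and lower the output of messages that carry a matching site. Mir34a, Mir34b and Mir34c are direct transcriptional targets of p53 and restrain cell-cycle genes, and Mir34a is also expressed in neurons. Mir449a, Mir449b and Mir449c lie within Cdc20b and, together with Mir34b and Mir34c, are needed for the formation of multiciliated cells, such as those of airway, oviduct, ependyma and choroid plexus.

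The mature sequences show what the members share. They are given 5′ to 3′ from RefSeq (GRCm38.p6), with bases 2 to 8 in capitals. Products of the 5′ arm carry the seed of the family:
mmu-miR-34a-5p: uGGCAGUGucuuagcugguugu
mmu-miR-34b-5p: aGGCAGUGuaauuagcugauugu
mmu-miR-449a-5p: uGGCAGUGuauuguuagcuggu
mmu-miR-449c-5p: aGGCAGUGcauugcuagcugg

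Of 1738 mature mouse records, these 4 have GGCAGUG at bases 2 to 8, which is 0.230%. miR-34c-5p and the mature products of Mir449b were not analysed here, so that count does not cover them. miR-34a-5p and miR-449a-5p are identical over their first 9 bases and at 15 of 22 positions without gaps. miR-34b-5p and miR-449c-5p match over their first 8 bases. Among these 4 products the pair most alike without gaps was miR-449a-5p and miR-449c-5p, identical at 18 of 21 positions. As miR-34c-5p was not compared, this does not give the most alike pair of the whole family. The opposite arms are shown because their seeds differ from that of the family, and because a read from either arm enters the same gene count:
mmu-miR-34a-3p: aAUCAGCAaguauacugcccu
mmu-miR-34b-3p: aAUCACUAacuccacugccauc
mmu-miR-34c-3p: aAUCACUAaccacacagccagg
mmu-miR-449a-3p: cAGCUAACaugcgacugcucuc
mmu-miR-449c-3p: cAGUUGCUagcugcacuacccu

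miR-34b-3p and miR-34c-3p share the seed AUCACUA, which no other of the 1738 records has, and are identical over their first 10 bases. Counts per gene do not separate the arms, so no share of the counts can be given to the family's seed itself. The hairpins of the 3 most abundant members, with GGCAGUG in capitals, place the seed near the 5′ end of each, also in Mir34c:
Mir34a hairpin: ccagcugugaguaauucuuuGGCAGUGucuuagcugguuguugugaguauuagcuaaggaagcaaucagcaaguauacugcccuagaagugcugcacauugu
Mir34c hairpin: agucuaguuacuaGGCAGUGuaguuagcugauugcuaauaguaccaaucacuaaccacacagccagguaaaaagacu
Mir449a hairpin: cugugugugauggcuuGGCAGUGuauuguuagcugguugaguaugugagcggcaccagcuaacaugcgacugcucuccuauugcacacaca

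GGCAGUG was found once in each, starting at base 21 of the Mir34a hairpin, base 14 of Mir34c and base 17 of Mir449a. Searched on the hairpin strand, these letters occur in 17 of 1005 mouse hairpin records (1.69%), 12 of them not members, so their presence in a hairpin is not particular to the family. No member shared a stretch of 22 bases with any other of the 2202 miRNA genes. The longest shared stretch was 14 bases, between Mir449a and Mir679, and for the others it was 11 or 12. A full-length read of any member therefore matches a single miRNA gene of the annotation. Multiply placed reads are counted for no gene, so genes with copies can be undercounted.

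The 6 genes lie at 3 loci (mm10, counted from 1). Mir34a (ENSMUSG00000065493.1, chr4:150068454-150068555, plus strand) has no protein-coding gene over it. Its last 17 bases overlap an exon of Gm37795, a transcript model on the same strand, and the nearest protein-coding gene, Gpr157, begins 18809 bases further on. Mir34b (ENSMUSG00000065492.1, chr9:51103562-51103645) and Mir34c (ENSMUSG00000065587.1, chr9:51103034-51103110) are 451 bases apart on the minus strand, opposite an intron in 1 of 5 annotated transcripts of Btg4. Mir449c (ENSMUSG00000076146.1, chr13:113035983-113036091), Mir449b (ENSMUSG00000078027.1, chr13:113037419-113037498) and Mir449a (ENSMUSG00000065575.1, chr13:113037534-113037624) lie in that order on the plus strand. All 3 fall within intron 2 of each of the 5 annotated transcripts of Cdc20b, in the same orientation, with 35 bases between Mir449b and Mir449a. The nearest genes to Mir449a other than these are Gm10735 and the protein-coding Gpx8, 1676 and 5128 bases away on the opposite strand. Mcidas and Ccno, known as regulators of multiciliated cell formation, lie further off, at 37139 and 46756 bases.

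Levels are given in CPM, counts per 1000000 counts in the miRNA gene rows, which numbered 5481053 in replicate 1 and 4266963 in replicate 2, or 35.4% and 31.2% of the reads in each table. A gene was called detected at 2 CPM or more in each library. By that rule 4 of the 6 members were detected, against 433 of 2202 miRNA genes (19.7%). Intervals on CPM are exact Poisson 95% intervals and cover counting error only, since PCR copies are not independent molecules. CPM was not divided by length, because reads were taken to come from mature arms of 21 to 23 bases. They were stated to be shorter than 30 bases, but counts per gene cannot show which part of a hairpin they come from. Dividing by hairpin length gave the same order of the members in each library. In bulk tissue, fewer cells of a type and less RNA per cell cannot be told apart.

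Mir34a, the p53-responsive single gene, had 2386 counts in replicate 1, a level of 435 CPM (418 to 453). In replicate 2 it had 524 counts, a level of 123 CPM (113 to 134). Replicate 1 was the high library for this gene, where it stood at rank 140 of all miRNA genes, against rank 214 in replicate 2. Its mean was 279 ± 221 CPM (SD, n = 2).

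Mir34c, the abundant gene of the chromosome 9 pair, had 1170 counts, 213 CPM (201 to 226), in replicate 1 and 1261 counts, 296 CPM (279 to 312), in replicate 2. It was the steadiest of the 3 abundant members and ranked 167 in both libraries, with a mean of 254 ± 58.0 CPM (SD, n = 2). Mir34b, its neighbour on the same strand, had 37 counts in replicate 1, 6.75 CPM (4.75 to 9.30), and 42 counts in replicate 2, 9.84 CPM (7.09 to 13.3). The 2 genes of this locus thus stood far apart in both libraries: Mir34c had 31.6 counts for each Mir34b count in replicate 1 (exact 95% interval 22.8 to 45.1) and 30.0 in replicate 2 (22.1 to 41.9), ratios whose intervals overlap.

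Mir449a, the main gene of the Cdc20b locus, had 554 counts, 101 CPM (92.8 to 110), in replicate 1. In replicate 2 it had 4859 counts, 1139 CPM (1107 to 1171). It stood at rank 198 in replicate 1 and at rank 102 in replicate 2, the high library for this gene, and its mean of 620 ± 734 CPM (SD, n = 2) had an SD larger than the mean.

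Mir449c and Mir449b, in the same intron, were close to the floor in both libraries. Mir449c had 5 counts in replicate 1, 0.912 CPM (0.296 to 2.13), and 7 in replicate 2, 1.64 CPM (0.660 to 3.38). Mir449b had 0 counts in replicate 1, which allows up to 0.547 CPM by the limit of 3 counts, and 3 counts in replicate 2, 0.703 CPM. The difference within this locus was wide: Mir449a had 111 counts for each Mir449c count in replicate 1 (47.2 to 343) and 694 in replicate 2 (337 to 1727).

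**Figure D1:**
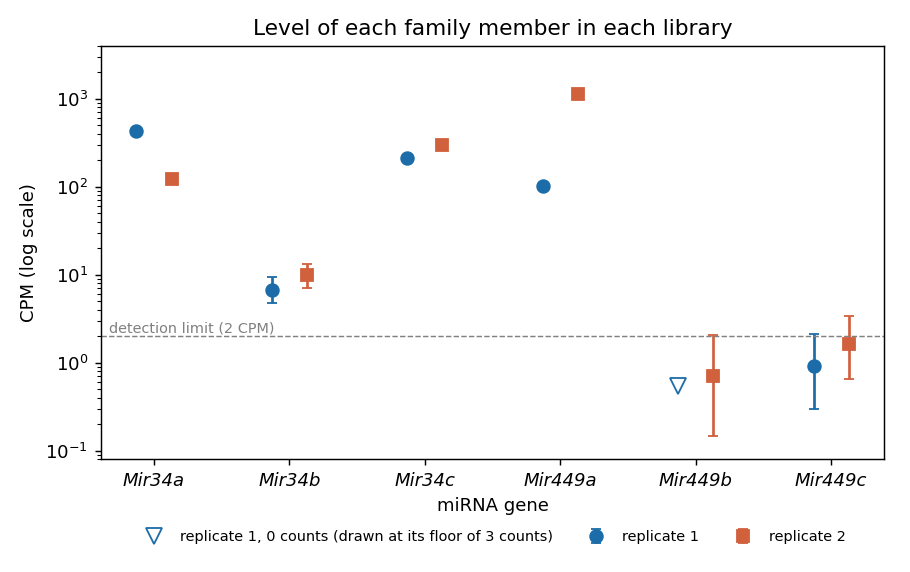
Level in CPM (log axis) of the 6 members in replicate 1 (circles) and replicate 2 (squares), with exact Poisson 95% intervals, the open triangle marking 0 counts drawn at its floor of 0.547 CPM and the dashed line the detection limit of 2 CPM. Mir34a was higher in replicate 1 (435 against 123 CPM) and Mir449a in replicate 2 (1139 against 101 CPM), while Mir449b and Mir449c lay under the detection limit in both.

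The order of the members within each library followed from these values. In replicate 1 it was Mir34a, Mir34c, Mir449a, Mir34b, Mir449c and Mir449b, and in replicate 2 Mir449a, Mir34c, Mir34a, Mir34b, Mir449c and Mir449b. Over the 2 libraries the ranges of Mir34a (123 to 435 CPM), Mir34c (213 to 296 CPM) and Mir449a (101 to 1139 CPM) overlapped, so these 3 neighbours in the order of levels did not differ beyond their spread. The range of Mir34b (6.75 to 9.84 CPM) lay below all of them and above that of Mir449c. Counting intervals of Mir449c and Mir449b overlapped in both libraries.

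Summed over the 6 genes, the family had 4152 counts in replicate 1, 758 CPM (exact Clopper-Pearson 95% interval 735 to 781), and 6696 counts in replicate 2, 1569 CPM (1532 to 1607). The sum was 2.07-fold higher in replicate 2 (1.99 to 2.15), with a mean of 1163 ± 574 CPM (SD, n = 2). Mir449a set that direction. The other 5 members together stood at 656 CPM in replicate 1 and 431 CPM in replicate 2, a ratio of 0.656 (0.620 to 0.694).

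The share of each locus in the family's counts does not depend on the library total. Mir34a held 57.5% of them in replicate 1, with an exact interval of 55.9 to 59.0, against 7.83% in replicate 2 (7.19 to 8.49). The chromosome 9 pair held 29.1% (27.7 to 30.5) and 19.5% (18.5 to 20.4). The Cdc20b locus held 13.5% (12.4 to 14.5) and 72.7% (71.6 to 73.8). The leading locus thus differed, with Mir34a first in replicate 1 and the Cdc20b intron first in replicate 2. Mir34a had 4.31 counts for each Mir449a count in replicate 1 (3.92 to 4.73), and Mir449a had 9.27 for each Mir34a count in replicate 2 (8.47 to 10.2).

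**Figure D2:**
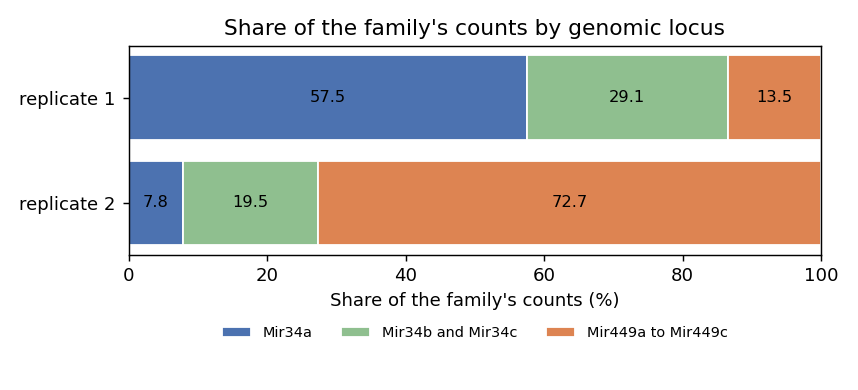
Share of the family's counts (x axis, percent) held by each of the 3 loci in replicates 1 and 2, as stacked bars that each sum to the whole family. Mir34a holds 57.5% in replicate 1 and 7.8% in replicate 2, and the Cdc20b locus with Mir449a to Mir449c holds 13.5% and 72.7%.

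Differences between the libraries were then tested for every miRNA gene with at least 10 counts in sum, with a two-sided exact binomial test given the library totals and Benjamini-Hochberg adjustment over all 579 genes tested. The test compares these 2 libraries and covers counting error only. It called 399 genes at an adjusted p under 0.05, which is 68.9% of those tested, with 42.0% higher and 26.9% lower in replicate 2. Of the 6 members 5 were tested and 3 called, a share near that background, so being called does not set the members apart. Mir449b, with 3 counts in all, was not tested.

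Among the called members the directions were split. Mir449a was 11.3-fold higher in replicate 2 (exact 95% interval 10.3 to 12.3), with an adjusted p in the exact binomial test too small to be stored as a number. Mir34a was 3.54-fold lower in replicate 2 (3.22 to 3.90; adjusted p = 4.29e-190, exact binomial test). Mir34c was 1.38-fold higher (1.28 to 1.5; adjusted p = 2.87e-15, exact binomial test). All 3 kept their direction and passed also with edgeR TMM and with DESeq2 scaling. With these the median over detected genes fell by 0.29 and by 0.27 on the log2 scale, and the share of called genes that are higher in replicate 2 was 49.0% and 49.7%, against 60.9% with library totals. With either factor estimated over all gene rows, an alternative chosen after seeing the data, Mir34c no longer passed (log2 ratio 0.11 with each, adjusted p = 0.088 with TMM and 0.0971 with DESeq2 factors, exact binomial test).

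The remaining members did not pass. Mir34b had a ratio of replicate 2 over replicate 1 of 1.46 (0.915 to 2.33; adjusted p = 0.147, exact binomial test). Mir449c had a ratio of 1.80 (0.491 to 7.19; adjusted p = 0.447, exact binomial test). At these depths an interval as wide as that of Mir449c includes the change seen in Mir34c and excludes the 11.3-fold change of Mir449a.

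The size of a member's difference can be set against the spread of all genes. Over the 433 detected genes the log2 ratio of (CPM + 1), replicate 2 over replicate 1, had a median of 0.27 and an SD of 1.52, and its absolute value had a median of 0.82. The 4 detected members had a median of 0.48 and a median absolute value of 1.15. Mir449a, at 3.48, had the 20th largest absolute log2 ratio of the 433 genes, and among the 218 detected genes with a mean of 100 CPM or more it was 17th. Mir34a, at -1.82, was 72nd of 433 and 48th of 218. Mir34c, at 0.47, and Mir34b, at 0.48, were 300th and 295th of 433 and so differed less between the libraries than most detected genes. An intercept-only edgeR fit over the 579 genes gave a common biological coefficient of variation, the relative SD between samples beyond counting error, of 0.729.

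**Figure D3:**
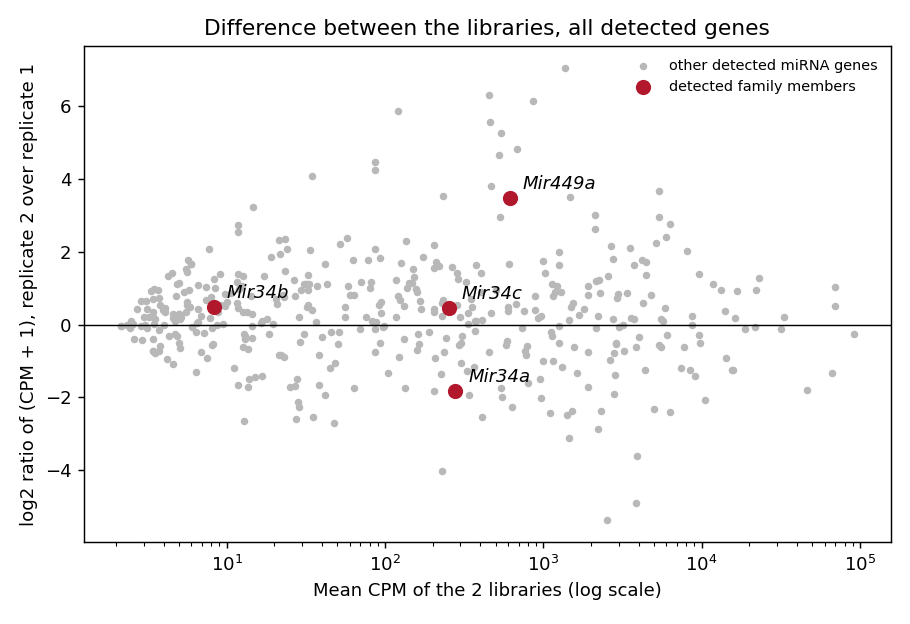
log2 ratio of (CPM + 1), replicate 2 over replicate 1 (y axis), against mean CPM on a log axis for the 433 detected genes, with the 4 detected members in red. Mir449a at 3.48 has the 20th largest absolute log2 ratio, below genes such as Mir200c at 7.04. Mir34a at -1.82 is 72nd, and Mir34b and Mir34c at 0.48 and 0.47 lie within the centre of the cloud.

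For each detected member the 3 detected genes nearest in level were found by Euclidean distance in log2(CPM + 1) over the 2 libraries. With so few libraries, likeness means only a similar level in both. Nearest to Mir34a were Mir212 (539 and 140 CPM in replicates 1 and 2, distance 0.36), Mir1843a (324 and 126 CPM, 0.43) and Mir129-1 (321 and 89.8 CPM, 0.63). Nearest to Mir34c were Mir1224 (184 and 277 CPM, 0.23), Mir467e (233 and 341 CPM, 0.24) and Mir30c-2 (180 and 288 CPM, 0.25). Mir34b had Mir1949, Mir6897 and Mir5122 within 0.18. Nearest to Mir449a were Mir490 (122 and 947 CPM, 0.37), Mir18 (61.8 and 875 CPM, 0.80) and Mir130b (45.4 and 1321 CPM, 1.16).

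Other miRNAs linked to choroid plexus, to epithelium and to the p53 response were read beside the family. The neuron-enriched list held 59805 CPM in replicate 1 and 83079 CPM in replicate 2, with 11 of its 14 genes detected. It was read for the presence of neuronal tissue and cannot tell the hippocampus, or a layer of it, from other brain tissue. By mean CPM Mir149, Mir128-1 and Mir132 were highest, at 13509, 11606 and 17142 CPM in replicate 1 and 32894, 21819 and 4038 CPM in replicate 2. Mir132 was thus first in replicate 1, and in replicate 2 it also stood below Mir137 and Mir128-2. Of its 13 tested genes 7 were higher in replicate 2 and 4 lower, beside 42.0% and 26.9% of all genes tested. Of the 14 genes 10 share at least 22 bases with another locus, so their counts are uncertain. These include the Mir124a genes, of which Mir124a-1 was highest, at 3.28 and 4.69 CPM in replicates 1 and 2. The 4 lower genes, in the direction of Mir34a, were Mir132 (4.25-fold), Mir212 (3.85-fold), Mir138-2 (3.27-fold) and Mir138-1 (2.39-fold). The 7 higher genes went the other way. They were Mir137 (2.65-fold), Mir128-2 (2.59-fold), Mir149 (2.43-fold), Mir9-3 (2.35-fold), Mir9-1 (2.23-fold), Mir128-1 (1.88-fold) and Mir124a-2 (8.35-fold, on 2 and 13 counts in replicates 1 and 2).

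Detected genes of the list named choroid plexus and ependyma, which leaves out the family, differed less between the libraries than Mir449a did. So did most detected genes, since Mir449a had the 20th largest absolute log2 ratio of 433. The list holds Mir204 and its relative Mir211, known from choroid plexus, and 5 genes that lie in Htr2c, a serotonin receptor gene of the same tissue. No gene of the list is tied here to ependyma or to cilia, so the list cannot show how multiciliated cells differed between the libraries. Of these 7 genes, 5 were detected. The list summed to 816 CPM in replicate 1 and 1118 CPM in replicate 2, and its detected genes had a median log2 ratio of 0.38, with a range of 0.02 to 0.88. Mir204 stood at 660 and 858 CPM, a 1.30-fold difference (1.24 to 1.36; adjusted p = 2.01e-28, exact binomial test). Mir1298 stood at 112 and 207 CPM, a 1.85-fold difference (1.67 to 2.06; adjusted p = 6.81e-32, exact binomial test), and Mir1264 at 16.6 and 25.3 CPM. Of the 6 tested genes these 3 passed, each higher in replicate 2, beside 42.0% of all genes tested. With TMM or DESeq2 factors 2 of 6 passed, and 1 of 6 with those factors estimated over all gene rows. Mir211 had 8 counts in replicate 1 and 4 in replicate 2, and Mir1912 had 0 and 2.

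The epithelial list, like Mir449a, was higher in replicate 2. Over 2 libraries this is a shared direction only, and genes of the list need not be independent of each other. This list and the sensory Mir183 cluster, like the other lists, were drawn up with earlier results of these data known. Their shares called are therefore description only. Its 7 genes summed to 111 CPM in replicate 1 and 6267 CPM in replicate 2, and all 7 were called higher in replicate 2, against 42.0% of all genes tested. The 6 detected genes had log2 ratios of 2.07 to 7.04, with a median of 5.57. By mean CPM the highest were Mir200c, Mir429 and Mir200b, of the miR-200 family that maintains the epithelial state. They stood at 19.5, 22.8 and 26.3 CPM in replicate 1 and at 2706, 1697 and 1053 CPM in replicate 2. The order by mean is that of replicate 2, since in replicate 1 Mir203 was highest at 36.1 CPM. The sensory Mir183 cluster, known from photoreceptors and hair cells, summed to 28.3 CPM in replicate 1 and 1839 CPM in replicate 2. Of its genes 3 of 3 were called higher, beside 42.0% of all genes tested, though genes of 1 cluster need not be independent. Mir183 stood at 17.9 and 898 CPM in replicates 1 and 2, and Mir182 at 10.2 and 895 CPM. No defining epithelial gene was at 0 in either library, the lowest being Mir141 with 4 counts in replicate 1. Their part in the level of Mir449a was not tested.

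p53-linked genes outside the family showed no common direction. Of 10 names 9 matched a row and 7 were tested, of which 4 were higher and 3 lower in replicate 2, beside 42.0% and 26.9% of all genes tested. With TMM or DESeq2 factors 3 were higher and 4 lower. Their detected members had a median log2 ratio of 0.11, with a range of -0.83 to 1.21. The most abundant were Mir143 (3099 and 2947 CPM in replicates 1 and 2), Mir107 (1627 and 2947 CPM) and Mir15a (1299 and 3006 CPM). None of the 7 fell as far as Mir34a, the lowest ratio being that of Mir192, which was 1.83-fold lower in replicate 2. Mir16-1, Mir107, Mir194-1 and Mir194-2 share at least 22 bases with another locus, so their counts are uncertain, and Mir215 had no count in either library.

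**Figure D4:**
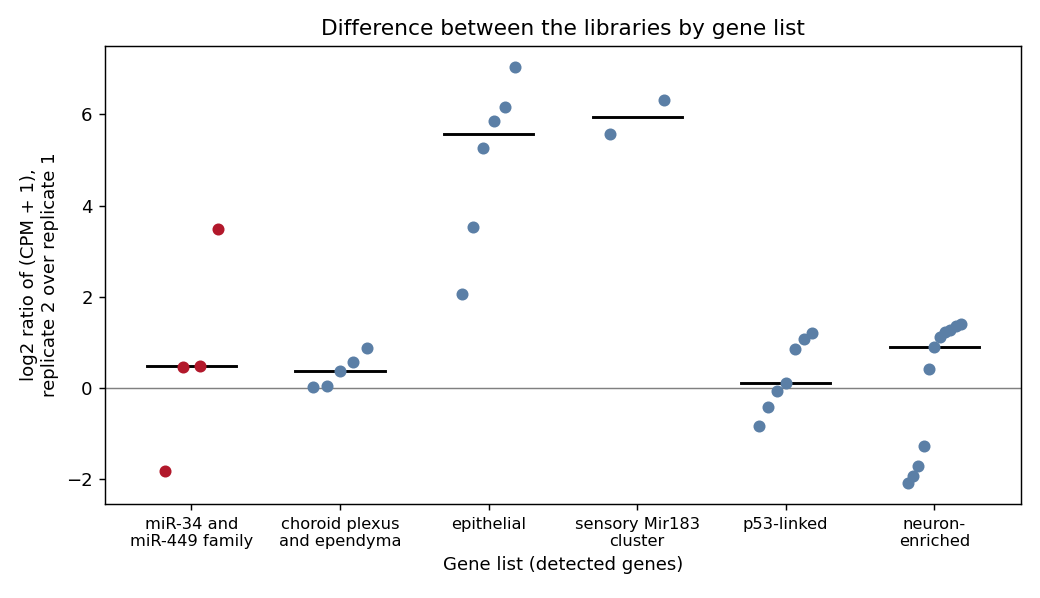
log2 ratio of (CPM + 1), replicate 2 over replicate 1 (y axis), of the detected genes of the family (red) and of the 5 other lists (blue), each point 1 gene and each bar the median. The family spans -1.82 to 3.48, the list named choroid plexus and ependyma 0.02 to 0.88, and the epithelial list 2.07 to 7.04.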

How the data were processed

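Each deposited table gives raw read counts for miRNA genes in 1 library, placed on mm10 and counted over GENCODE M21 per the deposited text beside it. Aligner, trimming and counter are not given in the sources used. The value columns carry no names. From the values, the second was read as the main strand and used. The third, read as the opposite strand, held 419060 and 253077 counts in replicates 1 and 2. The 4 rows that name no gene were left out of totals and tests. Reads matching several places made up 41.9% and 46.4% of replicates 1 and 2, unmapped reads 17.1% and 17.2%, and reads outside miRNA genes 5.56% and 5.17%. CAST/EiJ reads that carry variants can be placed less often.

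CPM, exact intervals and exact binomial tests were computed with SciPy 1.17.1, and TMM factors, DESeq2 size factors (both on the 433 detected genes) and dispersion with edgeR 4.0.16 and DESeq2 1.42.0. Log2 ratios add 1 CPM. With 1 group, no test between conditions exists. The genes named are the members, the 3 nearest in level to each detected member, and up to 3 detected genes per list, with others named from the annotation or after their values were seen. Members and lists were chosen with earlier results of these data known. Alternatives covered denominator, strand column, scaling, filter, pseudocount, detection limit and leaving out either library.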

Additional observations from a re-analysis of the deposited data

Results flagged for a closer look

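Mir34b had 17 counts in the column of the opposite strand in replicate 1, above the limit of 3 counts that a count of 0 allows, and 3 in replicate 2. That column enters none of the comparisons above. In the main column Mir34b had 37 and 42 counts, so without strand its totals were 54 and 45. The gene lies opposite an intron of Btg4, and the other 5 members had 0 counts in the opposite-strand column in both libraries.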

How the results depend on the processing

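Of 40 log2 ratios of single members recomputed under other scalings, filters, strand columns, denominators and pseudocounts, 38 kept their direction and side of the threshold, and 2, both of Mir34c with factors estimated over all gene rows, were not called (log2 ratio 0.11 with TMM and 0.11 with DESeq2 factors). Some of these could not change: the pseudocount does not enter the test, and dropping the filter leaves each ratio as it was. Mir34b and Mir449c were called in no setting, and the log2 ratio of Mir34b fell from 0.48 to 0.07 without strand. Mir449a ranged from 3.12 to 3.49 and Mir34a from -2.18 to -1.82. Of the members' mean levels recomputed with another denominator or without strand, 8 moved by more than the SD between the libraries and 10 did not. A large SD hides a move by this measure. With all reads as denominator Mir449a stood at 196 instead of 620 CPM and Mir34a at 96.3 instead of 279 CPM. Both counted as not moved. The count of genes called over the table ranged from 370 to 411, against 399. With all reads as denominator the family's mean level was 379 CPM instead of 1163, because that denominator is larger. With limits of 1 CPM, 10 CPM or 1 count in each library in place of 2 CPM, 4, 3 and 5 members were detected. Without replicate 1 the family stood at 1569 CPM and without replicate 2 at 758 CPM, and the share of the Cdc20b locus at 72.7% and 13.5%. The means of the family level and of the Cdc20b share over both libraries therefore stand for neither library alone. No paired analysis was possible because the libraries form 1 group. DESeq2 was not run as a test, since 1 library on each side leaves no residual degrees of freedom. Depth limits Mir449b and Mir449c, whose counts were at most 7.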
